A study of Mus musculus with 12 samples.

Results

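Cytochrome P450 genes of the colon were described across 12 mouse RNA-seq libraries. The members were the protein-coding genes whose symbol is Cyp followed by digits, letters and digits, with 10 or more counts summed over all libraries. The naming rule held 94 genes, and 60 of them reached the count minimum, out of 54532 genes listed. These 60 members fell into 32 subfamilies of 13 families. The lowest member sum was 15 counts (Cyp2a12) and the highest sum below the minimum was 9 counts (Cyp17a1). Forms outside the naming rule, such as Cyp51 and pseudogenes, were left out.

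Each library was made from total RNA of a piece of colon of a male C57BL/6 mouse. The labels list Con animals as untreated, whereas the study's methods give both Con and DSS animals vehicle by gavage. DSS animals drank 3% dextran sulfate sodium, a detergent-like polysaccharide that injures the colon epithelium, for 5 days. UA+DSS animals were given the plant triterpenoid ursolic acid (UA) by mouth at 200 mg/kg, starting 24 h before DSS, and DSS+UA animals received the same dose from 3 days after DSS began. The sources differ on how long it was given, 7 or 9 days in UA+DSS and 4 or 5 days in DSS+UA. There were 3 libraries in each group, from groups of 8 mice aged 6 weeks at arrival, and no source ties a library to a colon segment. The comparisons address what DSS colitis and early or late ursolic acid did to these genes. Replicate numbers name samples only. Each p-value sets a group difference against the spread between libraries within groups, estimated over all groups fitted together. In bulk tissue, fewer cells of a type and less RNA per cell cannot be told apart.

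Cytochrome P450 enzymes are heme proteins that insert an oxygen atom into small lipophilic molecules, with electrons passed from NADPH by the reductase Por. Families 1 to 3 act mainly on drugs and other foreign compounds, and several CYP2C and CYP2J enzymes also oxidize arachidonic acid. Family 4 hydroxylates fatty acids and eicosanoids such as leukotriene B4 at the end of the chain. The higher-numbered families make or break down sterols, bile acids, steroid hormones, vitamin D and retinoic acid. In the gut most of the drug-metabolizing forms are made by absorptive epithelial cells.

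Promoter sequence of 4 members is shown because these genes differed in opposite directions: Cyp2c55, Cyp2c65 and Cyp3a13 were higher in UA+DSS than in DSS, and Cyp4f18 was higher in DSS than in Con. The windows are the 300 bases from 250 before to 50 after the RefSeq start (GRCm38.p6), printed 5′ to 3′ in the direction of transcription. Capitals mark matches on either strand to 6 motifs: the TATA box letters TATAAA, the CCAAT box, the nuclear receptor half-site AGGTCA, the core GCGTG of the Ah receptor element, the AP-1 letters TGANTCA and the GATA letters AGATAA. The windows lie at chr19:39006769-39007068, plus strand; chr19:39060756-39061055, plus strand; chr5:137921570-137921869, minus strand; and chr8:72009577-72009876, minus strand.
Cyp2c55: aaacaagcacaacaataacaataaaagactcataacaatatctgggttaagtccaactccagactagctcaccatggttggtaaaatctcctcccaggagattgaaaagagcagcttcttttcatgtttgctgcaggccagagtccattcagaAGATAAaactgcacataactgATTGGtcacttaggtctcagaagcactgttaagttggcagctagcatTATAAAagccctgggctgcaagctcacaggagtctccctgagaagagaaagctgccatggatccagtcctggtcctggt
Cyp2c65: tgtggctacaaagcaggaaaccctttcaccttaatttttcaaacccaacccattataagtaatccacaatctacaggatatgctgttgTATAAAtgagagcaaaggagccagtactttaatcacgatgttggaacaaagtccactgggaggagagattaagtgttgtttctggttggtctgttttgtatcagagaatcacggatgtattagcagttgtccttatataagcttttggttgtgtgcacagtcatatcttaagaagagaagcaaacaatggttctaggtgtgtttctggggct
Cyp3a13: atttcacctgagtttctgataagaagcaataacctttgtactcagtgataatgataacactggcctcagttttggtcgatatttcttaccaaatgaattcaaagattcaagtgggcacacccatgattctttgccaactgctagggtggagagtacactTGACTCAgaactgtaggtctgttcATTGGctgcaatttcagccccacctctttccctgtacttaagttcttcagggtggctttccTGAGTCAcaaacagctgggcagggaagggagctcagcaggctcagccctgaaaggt
Cyp4f18: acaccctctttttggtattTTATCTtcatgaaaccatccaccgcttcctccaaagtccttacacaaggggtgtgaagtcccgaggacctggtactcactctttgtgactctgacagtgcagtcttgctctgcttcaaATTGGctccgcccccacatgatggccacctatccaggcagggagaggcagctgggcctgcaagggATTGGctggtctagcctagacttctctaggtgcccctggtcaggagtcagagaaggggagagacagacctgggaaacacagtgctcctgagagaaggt
Counted from the first transcribed base as 0, the Cyp2c55 window held AGATAA at -97, CCAAT at -76 on the other strand and TATAAA at -29. The Cyp2c65 window held only TATAAA, at -162, the Cyp3a13 window held 2 TGANTCA matches (-91 and -6) and CCAAT, and the Cyp4f18 window held AGATAA and 2 CCAAT matches. Of all 32851 windows in the RefSeq table, 13.6% held TATAAA, 37.4% CCAAT, 16.3% AGGTCA, 32.4% GCGTG, 7.81% TGANTCA and 11.2% AGATAA. The table held 56 windows of 49 members, and 21 of the 56 (37.5%) held TATAAA. Of the 56, 51.8% held CCAAT, 16.1% AGGTCA, 28.6% GCGTG, 7.14% TGANTCA and 16.1% AGATAA. Some members have more than 1 window, so the windows are not independent. A match is a run of letters and not evidence of binding.

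Cyp2c55, an arachidonate hydroxylase known from the colon, was the most abundant member. Its level per length was 468 counts per kilobase of exon and 1000000 counts (RPKM) over the 12 libraries. The next 4 by mean RPKM were Cyp2c65 at 68.8, Cyp4f14 at 55.7, Cyp3a13 at 47.7 and Cyp2d34 at 36.9. By counts in 1000000 (CPM), 5 members averaged 100 or more, 23 averaged 10 or more and 21 averaged under 1. The 5 highest members held 71.2% of the summed CPM of all 60. Cyp2c55 is at chromosome 19, 39007019 to 39042693 (GRCm38, plus strand), beside Cyp2c65 (39061015 to 39093944) and Cyp2c66 (39113898 to 39187072), and 11 members of the Cyp2c subfamily lie on that chromosome. Of the Cyp4f members, 7 lie on chromosome 17 and Cyp4f18 lies on chromosome 8 (71988482 to 72009626).

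Summed over the 60 members, CPM was 1243, 4309 and 2555 in Con, 531, 969 and 935 in DSS, 3255, 5513 and 2833 in UA+DSS and 466, 883 and 841 in DSS+UA. The 3 UA+DSS libraries and Con 2 and 3 held the 5 highest sums, Con 1 stood nearer to the DSS libraries, and the DSS and DSS+UA ranges overlapped. The means were 2702 ± 1538 (SD, n = 3) in Con, 812 ± 244 in DSS, 3867 ± 1441 in UA+DSS and 730.0 ± 229.9 in DSS+UA. The mean in DSS was 0.30 times that in Con, and the mean in UA+DSS was 4.76 times that in DSS. The Cyp2c subfamily held 62.8% of the sum in Con, 24.1% in DSS, 63.8% in UA+DSS and 11.7% in DSS+UA. The DSS share rested on DSS 3 (45.8%), and without that library it was 10.6%. Without Cyp2c55 the summed CPM was 935, 1525 and 1097 in Con, 491, 954 and 568 in DSS, 1461, 2379 and 1582 in UA+DSS and 457, 864 and 821 in DSS+UA.

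**Figure D1:**
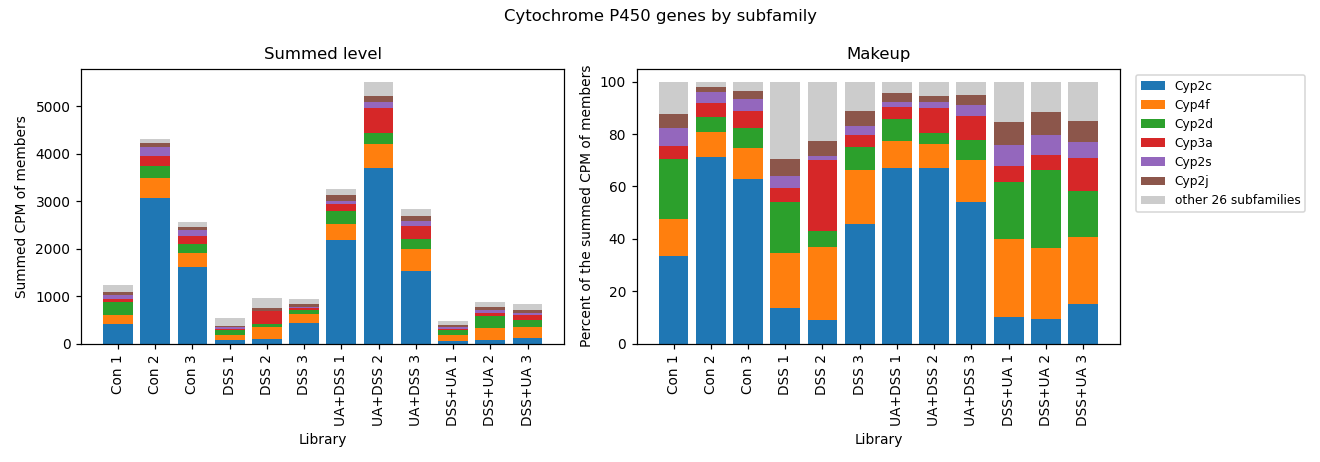
Stacked bars give the summed CPM of the 60 members in each of the 12 libraries (left, CPM) and the percent of that sum (right) for the 6 largest subfamilies and the other 26 together. Cyp2c is the largest part in Con and UA+DSS and a small one in DSS+UA, where it holds 11.7% of the sum.

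Total counts per library ran from 15566216 to 19498383, and 17658 genes passed the filter on low counts. Of the 60 members, 40 passed it and could be tested. The other 20 had mean CPM between 0.0646 and 6.09, and a count of 0 in one library allows up to 0.144 to 0.192 CPM (3 counts, counting error only). Several libraries stood apart from their group. Small intestine enterocyte markers (Alpi, Sis, Lct, Apoa4, Rbp2, Fabp6) summed to 987 CPM in DSS 2 and 259.6 in DSS+UA 3, against 13.8 to 115 in the other 10. Pancreas markers summed to 13342 CPM in DSS 3 and 31.2 to 554 elsewhere. All 8 general epithelium markers were counted and summed to 6113 to 9965 CPM in DSS and 11108 to 20560.0 in the other groups.

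Hox genes are expressed in order along the colon, and a position score was taken as the mean log2 CPM of Hoxb13 and Hoxd10 to Hoxd13 (distal) minus that of Hoxb3 to Hoxb8 (proximal). The score was 5.52, -3.02 and -1.83 in Con, 3.10, 1.35 and 0.37 in DSS, -4.88, -5.70 and -4.16 in UA+DSS and 4.12, 4.48 and 5.06 in DSS+UA. UA+DSS libraries were thus the most proximal by this score, DSS+UA libraries were distal, and Con spanned both ends. The position score did not overlap between UA+DSS and any other group, or between DSS+UA and DSS.

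Among the Cyp2c genes, Cyp2c55 and Cyp2c65 had the largest differences between the early and late ursolic acid groups. Cyp2c55 CPM was 307, 2784 and 1458 in Con, 39.6, 14.9 and 367 in DSS, 1794, 3134 and 1251 in UA+DSS and 8.27, 19.4 and 19.6 in DSS+UA. All UA+DSS values exceeded all DSS and DSS+UA values, and DSS 3 exceeded Con 1. The log2 fold change was -3.43 ± 1.14 (SE), edgeR adjusted p = 0.047, in DSS against Con, 3.88 ± 1.16 (SE), edgeR adjusted p = 0.042, in UA+DSS against DSS, and -6.59 ± 1.32 (SE), edgeR adjusted p = 0.011, in DSS+UA against Con. DSS 3 held most of the DSS counts, and without it the first pair of values were -5.79 (adjusted p = 0.0052) and 6.24 (adjusted p = 0.0074). Without Con 2 the first was -2.65 (adjusted p = 0.14) and the third -5.80 (adjusted p = 0.031). The calls of Cyp2c55 in DSS against Con and in UA+DSS against DSS were each lost in 10 of the 12 fits that left out 1 library, and that in DSS+UA against Con in 0. Cyp2c65, which makes epoxides of arachidonic acid in the gut, had CPM of 3.72, 231 and 102 in Con, 3.9, 27.8 and 36.8 in DSS, 372, 543 and 248 in UA+DSS and 2.84, 4.27 and 14.8 in DSS+UA. Its lowest Con value, in Con 1, was lower than all 3 DSS values, and its UA+DSS values lay above all other libraries. Against DSS, Cyp2c65 rose in UA+DSS with a log2 fold change of 4.09 ± 1.26 (SE), edgeR adjusted p = 0.046, a call lost in 11 of the 12 fits that left out 1 library. Without DSS+UA 3 the value in UA+DSS against DSS+UA was 6.75 (adjusted p = 0.052). The change against Con in DSS was -2.30 ± 1.17 (SE), edgeR adjusted p = 0.16, which did not pass the threshold. Of the Cyp2c65 sequence, 20.65% in 50-base windows recurs in other genes, Cyp2c66 among them, so reads of that part may have been assigned uncertainly.

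The rest of the Cyp2c subfamily was low or uneven. Cyp2c69 CPM was 4.09, 12.6 and 10.4 in Con, 0.722, 0 and 1.06 in DSS, 0.257, 0.75 and 2.29 in UA+DSS and 0.369, 0.124 and 0.222 in DSS+UA. Con stood above all other libraries, and the log2 fold change was -3.92 ± 1.00 (SE), edgeR adjusted p = 0.017, in DSS and -5.19 ± 1.10 (SE), edgeR adjusted p = 0.013, in DSS+UA, each against Con. Without DSS 3 the first was -4.61 (adjusted p = 0.023). Of the Cyp2c69 sequence, 54.31% recurs in Cyp2c40, Cyp2c67 and Cyp2c68, so its counts are uncertain. Cyp2c68, with 43.28% recurring, was the most abundant of these 4 and had CPM of 96.7, 39.5 and 32.3 in Con, 26.3, 8.02 and 23.1 in DSS, 5.58, 9.06 and 32.1 in UA+DSS and 35.2, 56.7 and 76.5 in DSS+UA, with no comparison past the threshold. Cyp2c23, an arachidonate epoxygenase known from the kidney, stayed at or under 1.09 CPM and was lower in UA+DSS than in DSS+UA (-3.04 ± 0.94 (SE), edgeR adjusted p = 0.048). Its UA+DSS counts were 2, 0 and 2, and the call was lost in 10 of the 12 fits that left out 1 library.

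Cyp2s1 and Cyp2w1 are forms known mainly outside the liver, in epithelia and in the developing or malignant gut. Cyp2s1 CPM was 89.3, 178 and 119 in Con, 24.9, 12.8 and 31.9 in DSS, 66.3, 136 and 115 in UA+DSS and 35.8, 65 and 51.2 in DSS+UA. DSS was below every other library, and the DSS+UA values lay between DSS and Con without overlap. The log2 fold change was -2.47 ± 0.40 (SE), edgeR adjusted p = 0.0032, in DSS against Con, 2.19 ± 0.40 (SE), edgeR adjusted p = 0.01, in UA+DSS against DSS, and -1.35 ± 0.39 (SE), edgeR adjusted p = 0.036, in DSS+UA against Con. Cyp2w1 was scarcer, with CPM of 5.33, 2.5 and 1.87 in Con, 0.241, 0.501 and 0.158 in DSS, 2.57, 9.0 and 2.71 in UA+DSS and 0, 1.24 and 1.05 in DSS+UA. It fell in DSS against Con (-3.40 ± 1.01 (SE), edgeR adjusted p = 0.03) and rose in UA+DSS against DSS (3.95 ± 1.02 (SE), edgeR adjusted p = 0.025), where the value without UA+DSS 2 was 3.11 (adjusted p = 0.10).

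The Cyp2d genes are relatives of the human debrisoquine hydroxylase CYP2D6. Cyp2d34 was their most abundant member, with CPM of 148, 159.7 and 135 in Con, 54.3, 20.1 and 48.7 in DSS, 148, 94.7 and 117 in UA+DSS and 65, 156 and 80.8 in DSS+UA. Con and DSS did not overlap, and DSS+UA ran from just above DSS into the Con range. The log2 fold change was -1.85 ± 0.39 (SE), edgeR adjusted p = 0.008, in DSS against Con and 1.55 ± 0.39 (SE), edgeR adjusted p = 0.022, in UA+DSS against DSS. Cyp2d22 CPM was 32.6, 22.2 and 19.1 in Con, 13.9, 15.9 and 11 in DSS, 22.5, 21.6 and 20.1 in UA+DSS and 8.11, 8.1 and 6.65 in DSS+UA, and its lowest 3 values were those of DSS+UA. It fell in DSS against Con (-0.86 ± 0.22 (SE), edgeR adjusted p = 0.017), and fell in DSS+UA against both Con (-1.69 ± 0.23 (SE), edgeR adjusted p = 0.0043) and DSS (-0.83 ± 0.22 (SE), edgeR adjusted p = 0.046). Cyp2d9, Cyp2d10, Cyp2d12 and Cyp2d26 had no call in any comparison and Cyp2d11 was not tested. Cyp2d9, Cyp2d10 and Cyp2d11 share over 10% of their sequence with other genes.

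Cyp2j6, an arachidonate epoxygenase of the intestine, had CPM of 58.5, 81.6 and 69 in Con, 31.5, 54.2 and 49.2 in DSS, 114, 119.8 and 105 in UA+DSS and 40.6, 75.3 and 67.9 in DSS+UA. UA+DSS stood above all other libraries, and the log2 fold change against DSS was 1.33 ± 0.25 (SE), edgeR adjusted p = 0.012. Cyp2j9 was higher in UA+DSS than in DSS+UA (1.42 ± 0.41 (SE), edgeR adjusted p = 0.037). Cyp2e1, the ethanol-inducible form abundant in liver and fat, had CPM of 0.0517, 2.5 and 6.42 in Con, 56.6, 8.02 and 9.3 in DSS, 24.1, 25.3 and 5.85 in UA+DSS and 1.26, 6.5 and 0.554 in DSS+UA and no call. The 5 adipocyte markers had a summed CPM of 0.155, 14.4 and 21.6 in Con, 34.7, 15.5 and 7.77 in DSS, 50.6, 45.3 and 16.5 in UA+DSS and 2.48, 12 and 5.05 in DSS+UA; their part in the Cyp2e1 values was not tested. Cyp2b10, the form induced through the nuclear receptor CAR, and Cyp2c29 were not tested, because nearly all their counts came from 2 libraries described below.

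**Figure D2:**
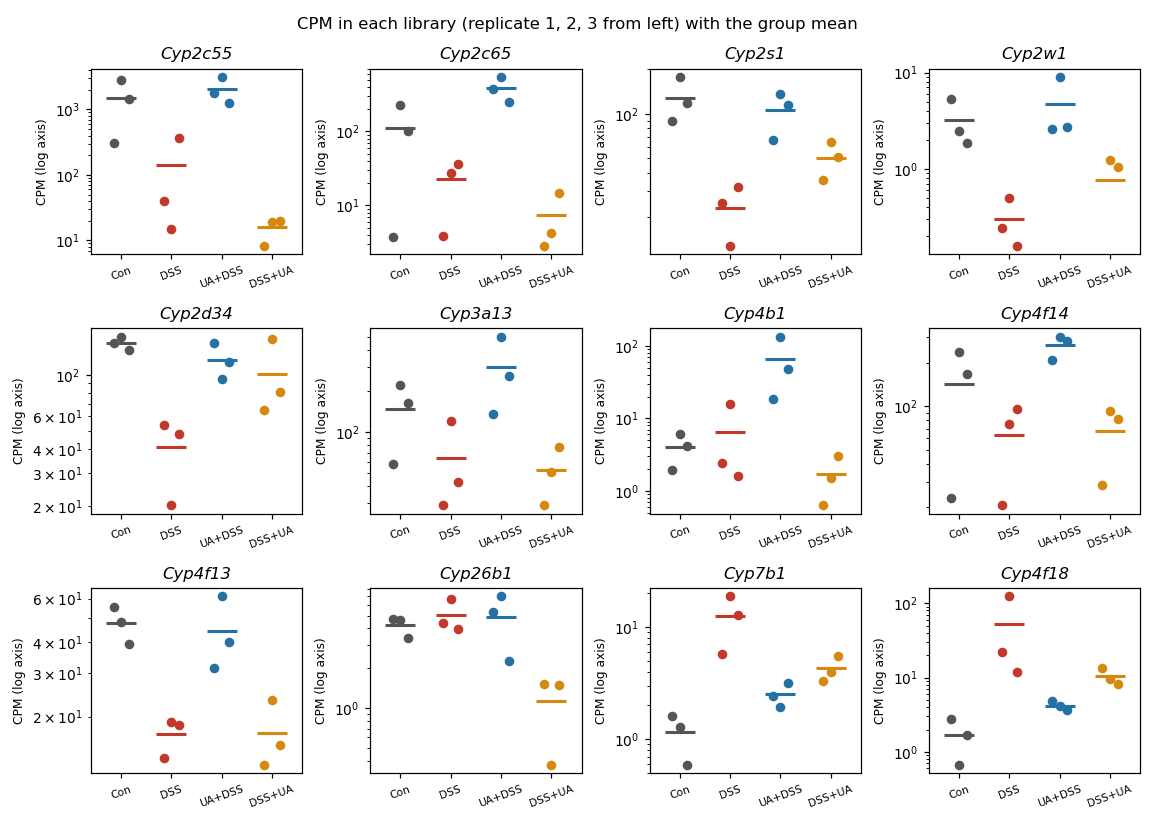
CPM on log axes for 12 members in the 12 libraries, with points for replicates 1 to 3 and a bar for the group mean. Cyp2w1 in DSS+UA 1 was 0 and is not drawn. Cyp2c55, Cyp2c65 and Cyp4b1 are highest in UA+DSS, Cyp2s1 is lowest in DSS, and Cyp4f18 and Cyp7b1 are highest in DSS.

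In the Cyp3a subfamily, which hydroxylates steroids and many drugs, Cyp3a13 was the most abundant member by mean CPM in these libraries. Its CPM was 58.4, 222 and 162 in Con, 28.8, 121 and 43.1 in DSS, 136, 504 and 259.9 in UA+DSS and 29.1, 50.7 and 77.8 in DSS+UA. All UA+DSS values exceeded the DSS values, and Con overlapped both. Cyp3a13 rose in UA+DSS against DSS (2.22 ± 0.70 (SE), edgeR adjusted p = 0.049) and was higher in UA+DSS than in DSS+UA (2.51 ± 0.70 (SE), edgeR adjusted p = 0.036). Without DSS 2 the first of these was 3.06 (adjusted p = 0.036), and without UA+DSS 2 they were 1.62 (adjusted p = 0.19) and 1.91 (adjusted p = 0.14). The value for DSS against Con was -1.19 ± 0.68 (SE), edgeR adjusted p = 0.21. Cyp3a44 was counted only in the UA+DSS libraries and 2 of the Con libraries, at 3.34, 9.12 and 0.532 CPM in UA+DSS, and was not tested.

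Cyp3a11, the main liver and small intestine form, was counted in 5 libraries. Its CPM was 119 in DSS 2, 24.2 in DSS+UA 3 and 0.257, 0.937 and 0.0532 in UA+DSS, and it was listed at 0 in all other libraries. The same 2 libraries held nearly all of Cyp2b10 (52.5 and 20.4 CPM) and all of Cyp2c29 (17.8 and 9.26). Cyp3a25 reached 21.5 and 5.66 CPM there and Cyp2c66 16.4 and 5.66, and both were also counted in UA+DSS at up to 4.56 and 6.81. These 5 members were the only ones of the 60 whose level in both libraries was over 5 times the highest of the other Con, DSS and DSS+UA libraries.

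Some of the 6 small intestine markers were high in the same 2 libraries. The 4 that were tested ran from -1.08 to 7.87 in log2 fold change in DSS against Con. In DSS+UA against Con they ran from -1.18 to 6.21, so not all rose, and 0 were called in either comparison. Apoa4, an apolipoprotein of enterocytes, was at 306 CPM in DSS 2 and 66.6 in DSS+UA 3, and at or under 0.50 elsewhere. Lactase (Lct) was at 61.3 and 15.5 CPM there and at or under 0.211 elsewhere. Sucrase-isomaltase (Sis) was at 143 and 45.2 CPM there, and at 2.89, 32.4 and 4.31 in UA+DSS. Hepatocyte markers did not follow: albumin (Alb) was listed at 0 in DSS 2 and reached 2.22 CPM at most. With these 2 libraries counted, no comparison called Cyp3a11, Cyp3a25 or Cyp2c66.

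**Figure D3:**
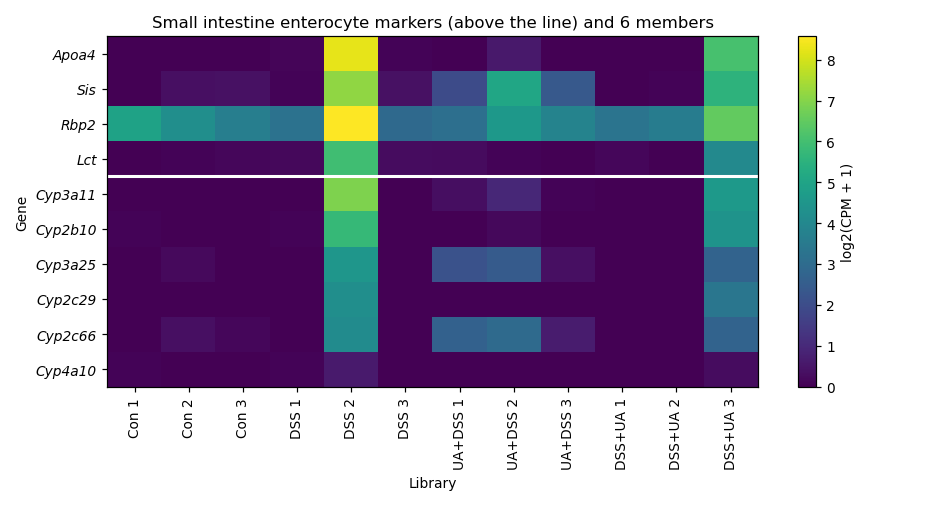
Log2(CPM + 1) of 4 of the 6 small intestine enterocyte markers listed and of 6 members in the 12 libraries. DSS 2 and DSS+UA 3 are bright in both sets, and UA+DSS 1 and 2 show Sis, Cyp3a25 and Cyp2c66.

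Family 4 members moved in both directions under DSS. Cyp4f18, the leukotriene B4 hydroxylase of neutrophils, had CPM of 2.74, 0.666 and 1.71 in Con, 22, 124 and 12 in DSS, 4.88, 4.12 and 3.62 in UA+DSS and 13.6, 9.65 and 8.32 in DSS+UA. Every DSS and DSS+UA value exceeded every Con and UA+DSS value, and DSS 2 was far above the rest. The log2 fold change was 4.94 ± 0.87 (SE), edgeR adjusted p = 0.0043, in DSS against Con, -3.65 ± 0.81 (SE), edgeR adjusted p = 0.017, in UA+DSS against DSS, and 2.62 ± 0.80 (SE), edgeR adjusted p = 0.047, in DSS+UA against Con. Neutrophil markers (6 genes, among them S100a8, S100a9 and Ly6g) had a summed CPM of 114, 9.26 and 13.5 in Con, 837, 16388 and 918 in DSS, 26.2, 33.5 and 116 in UA+DSS and 952, 394 and 943 in DSS+UA, with the highest sum also in DSS 2; their part in the Cyp4f18 result was not tested. Without DSS 2 the log2 fold change of Cyp4f18 was 3.30 (adjusted p = 0.0029) in DSS against Con and -2.02 (adjusted p = 0.028) in UA+DSS against DSS. Its exons overlap Zfp961 on the opposite strand over 9.757% of their length.

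The products of the other Cyp4f genes hydroxylate fatty acids and leukotrienes. Cyp4f14, the most abundant, had CPM of 23.3, 238 and 167 in Con, 20.6, 74.9 and 94.9 in DSS, 207, 302 and 284 in UA+DSS and 28.4, 93.3 and 81.8 in DSS+UA and no call in any comparison, with Con 1 close to DSS 1. Cyp4f13 CPM was 55.5, 48.1 and 39.4 in Con, 13.6, 19 and 18.5 in DSS, 31.6, 61.4 and 40.04 in UA+DSS and 12.7, 23.4 and 15.4 in DSS+UA. Con and UA+DSS lay above DSS and DSS+UA without overlap, and the log2 fold change was -1.49 ± 0.29 (SE), edgeR adjusted p = 0.0056, in DSS against Con and 1.38 ± 0.29 (SE), edgeR adjusted p = 0.014, in UA+DSS against DSS. Cyp4f16 fell in DSS against Con (-1.17 ± 0.21 (SE), edgeR adjusted p = 0.0043) and was higher in UA+DSS than in DSS (0.77 ± 0.21 (SE), edgeR adjusted p = 0.03). Cyp4f40 CPM was 41.3, 38.6 and 27 in Con, 23.7, 17.8 and 33 in DSS, 48.9, 77.3 and 72.9 in UA+DSS and 51.5, 62 and 66.8 in DSS+UA, and both ursolic acid groups exceeded DSS (1.42 ± 0.26 (SE), edgeR adjusted p = 0.01, in UA+DSS and 1.27 ± 0.26 (SE), edgeR adjusted p = 0.024, in DSS+UA). Cyp4f17 fell in DSS+UA against Con (-1.38 ± 0.41 (SE), edgeR adjusted p = 0.04).

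Cyp4b1, which oxidizes fatty acids and some protoxins and is best known from the lung, had CPM of 1.97, 6.05 and 4.17 in Con, 2.45, 15.5 and 1.58 in DSS, 18.2, 134 and 47.9 in UA+DSS and 0.632, 1.48 and 2.99 in DSS+UA. UA+DSS stood above all other libraries, and DSS 2 was the next highest. The log2 fold change was 3.35 ± 0.99 (SE), edgeR adjusted p = 0.04, in UA+DSS against DSS and 5.29 ± 1.10 (SE), edgeR adjusted p = 0.014, in UA+DSS against DSS+UA. Without DSS 2 the first was 5.04 (adjusted p = 0.024), and without DSS+UA 3 the second was 5.97 (adjusted p = 0.044). Without UA+DSS 2, which held most of the UA+DSS counts, they were 2.35 (adjusted p = 0.17) and 4.27 (adjusted p = 0.055). Cyp4x1, a form with few known substrates, had CPM of 1.29, 1.11 and 0.963 in Con, 0.0962, 0.401 and 0.264 in DSS, 0.962, 0.625 and 1.17 in UA+DSS and 0.0527, 0.0619 and 0.111 in DSS+UA and fell in DSS (-2.12 ± 0.50 (SE), edgeR adjusted p = 0.012) and DSS+UA (-3.78 ± 0.60 (SE), edgeR adjusted p = 0.0053); an antisense gene, Cyp4x1os, overlaps 10.75% of its exons. Cyp4v3, a fatty acid hydroxylase of many tissues, had 58.2 CPM in DSS 2, 7.48 to 22.2 elsewhere, and no call. Cyp4a10, a target of PPAR alpha, was at or under 0.551 CPM and was not tested.

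Cyp7b1, which hydroxylates 25-hydroxycholesterol on the way to ligands of the immune cell receptor Gpr183, was the second member raised by DSS. Its CPM was 1.6, 1.28 and 0.588 in Con, 5.72, 18.7 and 12.8 in DSS, 2.44, 1.94 and 3.19 in UA+DSS and 3.27, 3.96 and 5.54 in DSS+UA. DSS exceeded every other library, UA+DSS lay between Con and DSS+UA, and no groups overlapped. Against Con the log2 fold change was 3.42 ± 0.50 (SE), edgeR adjusted p = 0.0024, in DSS and 1.87 ± 0.48 (SE), edgeR adjusted p = 0.024, in DSS+UA, and Cyp7b1 fell in UA+DSS against DSS (-2.30 ± 0.47 (SE), edgeR adjusted p = 0.014). Macrophage and monocyte markers summed to 176 to 435 CPM in Con, 1149 to 3818 in DSS, 326 to 671 in UA+DSS and 479.7 to 1247 in DSS+UA, and fibroblast markers to 887 to 1547, 2664 to 5940.4, 512 to 1325 and 751 to 1928; their part in the Cyp7b1 result was not tested.

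Among the other sterol enzymes, Cyp39a1, the 24-hydroxycholesterol 7-alpha-hydroxylase, fell in DSS against Con (-1.18 ± 0.39 (SE), edgeR adjusted p = 0.044), from 27.8 ± 5.3 to 12.3 ± 6.87 CPM (SD, n = 3). Cyp27a1, the mitochondrial sterol 27-hydroxylase, had CPM of 44.1, 8.26 and 11.1 in Con, 17.1, 21.7 and 8.87 in DSS, 14.6, 52.4 and 18.8 in UA+DSS and 14.7, 19.8 and 16.7 in DSS+UA and no call. Cyp46a1, the 24-hydroxylase of brain cholesterol, and Cyp8b1, of bile acid synthesis, were at or under 0.866 CPM and were not tested.

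Cyp26b1, which clears retinoic acid, was lowest in DSS+UA. Its CPM was 4.71, 4.6 and 3.37 in Con, 4.43, 6.66 and 3.96 in DSS, 5.32, 7.0 and 2.29 in UA+DSS and 1.53, 0.371 and 1.5 in DSS+UA. The DSS+UA values did not overlap with any other group, and the log2 fold change was -2.13 ± 0.53 (SE), edgeR adjusted p = 0.04, against DSS and -1.89 ± 0.53 (SE), edgeR adjusted p = 0.033, against Con. Cyp1b1, an Ah receptor target of stromal cells, had CPM of 0.465, 1.72 and 1.18 in Con, 2.41, 1.05 and 4.17 in DSS, 4.04, 3.31 and 1.7 in UA+DSS and 1.05, 0.186 and 0.222 in DSS+UA and was higher in UA+DSS than in DSS+UA (2.59 ± 0.76 (SE), edgeR adjusted p = 0.039). Without DSS+UA 1 this was 3.82 (adjusted p = 0.03). The call was lost in 7 of the 12 fits that left out 1 library, with edgeR adjusted p up to 0.13 and values down to 2.20. Cyp1a1, the classic Ah receptor target, was at or under 4.21 CPM with no call. Vitamin D enzymes were low: Cyp2r1, a 25-hydroxylase, had 1.11 to 3.1 CPM and no call, and Cyp27b1, the 1-alpha-hydroxylase, was at or under 0.451 and was not tested. The steroid hormone enzymes Cyp11a1 and Cyp21a1 were at or under 0.31 and 0.902 CPM. Cyp20a1, an orphan form, was at 17.5 to 30.9 CPM with no call. Below the count minimum, Cyp1a2 had 4 counts in all, Cyp24a1 and Cyp11b1 had 1 each, and 17 of the 34 genes had none.

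DSS against Con asks what colitis did to these genes. Most members that moved fell: 10 of the 40 tested were lowered and 2 were raised, where 12.6% of all 17658 genes tested were lowered and 13.9% raised (edgeR quasi-likelihood test, Benjamini-Hochberg adjusted p under 0.05 over all genes). The lowered members were Cyp2c55, Cyp2c69, Cyp2d22, Cyp2d34, Cyp2s1 and Cyp2w1 of family 2, Cyp4f13, Cyp4f16 and Cyp4x1 of family 4 and the sterol enzyme Cyp39a1. The raised members were Cyp4f18 and Cyp7b1. The DSS and Con ranges of Cyp2c55 overlapped. The median log2 difference was -0.83 over the 40 members and -0.03 over all genes. Cyp2d34, Cyp2s1, Cyp4f13, Cyp4f16, Cyp4f18, Cyp4x1 and Cyp7b1 remained called whichever library was left out, and Cyp39a1 lost its call in 9 of the 12 such fits. The mean log2 CPM of the 8 general epithelium markers was 9.05 to 9.73 in DSS and 9.89 to 10.6 elsewhere. These ranges do not overlap, so epithelial content and group cannot be told apart where DSS is compared. With that epithelial score as a covariate Cyp7b1 alone of the members remained called, and 451 of all 17658 genes were called. The log2 fold change then went from -0.86 to -1.15 for Cyp2d22, from -3.40 to -3.21 for Cyp2w1, from -1.49 to -1.16 for Cyp4f13 and from -1.18 to -0.15 for Cyp39a1. With the position score as a covariate 11 of the 12 remained called, all but Cyp39a1, and 5382 of all 17658 genes were called. Leaving out DSS 2, DSS 3 and DSS+UA 3 leaves 1 DSS library. Calls then became fewer among the members and among all genes, and none of the 12 changed direction.

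Early ursolic acid was addressed by UA+DSS against DSS. Of the 40 members tested, 12 were raised and 2 lowered, where 8.21% of all genes tested were raised and 10.5% lowered. Raised were Cyp2c55, Cyp2c65, Cyp2d34, Cyp2j6, Cyp2s1 and Cyp2w1 of family 2, Cyp3a13, and Cyp4b1, Cyp4f13, Cyp4f16, Cyp4f40 and Cyp4x1 of family 4. Cyp4f18 and Cyp7b1 were lowered. The median log2 difference of UA+DSS against DSS was 0.71 over the 40 members and -0.02 over all genes. With the position score as a covariate 0 members remained called, 3 of all 17658 genes were called, and Cyp2c65 changed sign, to -0.11 (adjusted p = 0.96). With that covariate the log2 fold change went from 2.22 to 0.75 for Cyp3a13 and from 3.88 to 1.44 for Cyp2c55, but from 3.95 to 4.82 for Cyp2w1, from 1.84 to 2.02 for Cyp4x1 and from 1.38 to 1.45 for Cyp4f13. None of the 14 remained called with the epithelial score as a covariate, where 0 of all 17658 genes were called and the values went from 3.35 to 4.84 for Cyp4b1 and from -3.65 to -0.70 for Cyp4f18. None remained called without UA+DSS 2 (183 of all 18260 genes then tested were called) or without DSS 2, DSS 3 and DSS+UA 3 together (175 of 19141).

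The position score varied within Con as well, where no animal had DSS. Of the 12 members raised in UA+DSS against DSS, Con 1, the most distal library by score, was the lowest Con library for 7, the highest for 4 (Cyp2w1, Cyp4f13, Cyp4f40 and Cyp4x1) and between the others for Cyp2d34. It had 3.72 CPM of Cyp2c65 against 231 and 102 in Con 2 and 3. For Cyp4f13 it had 55.5 against 48.1 and 39.4. UA+DSS 2, the most proximal library, had the highest CPM of Cyp2c55, Cyp2c65, Cyp2j6, Cyp3a13 and Cyp4b1. It also had the highest of Cyp2w1, Cyp4f13 and Cyp4f40, for which Con 1 was the highest Con library. For Cyp2d34, Cyp2s1, Cyp4f16 and Cyp4x1 another library was highest. Cyp2s1 in Con 1 was at 89.3 CPM, above every DSS and DSS+UA library. Con 1 also held more hepatocyte markers (99.5 CPM against 10.2 and 13.4 in Con 2 and 3). Its pancreas markers summed to 554 CPM against 158 and 143. Which of these traits goes with its member values was not tested. Position and treatment cannot be told apart between UA+DSS and the other groups, since their scores do not overlap. The same holds between DSS+UA (4.12 to 5.06) and DSS (0.37 to 3.10).

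**Figure D4:**
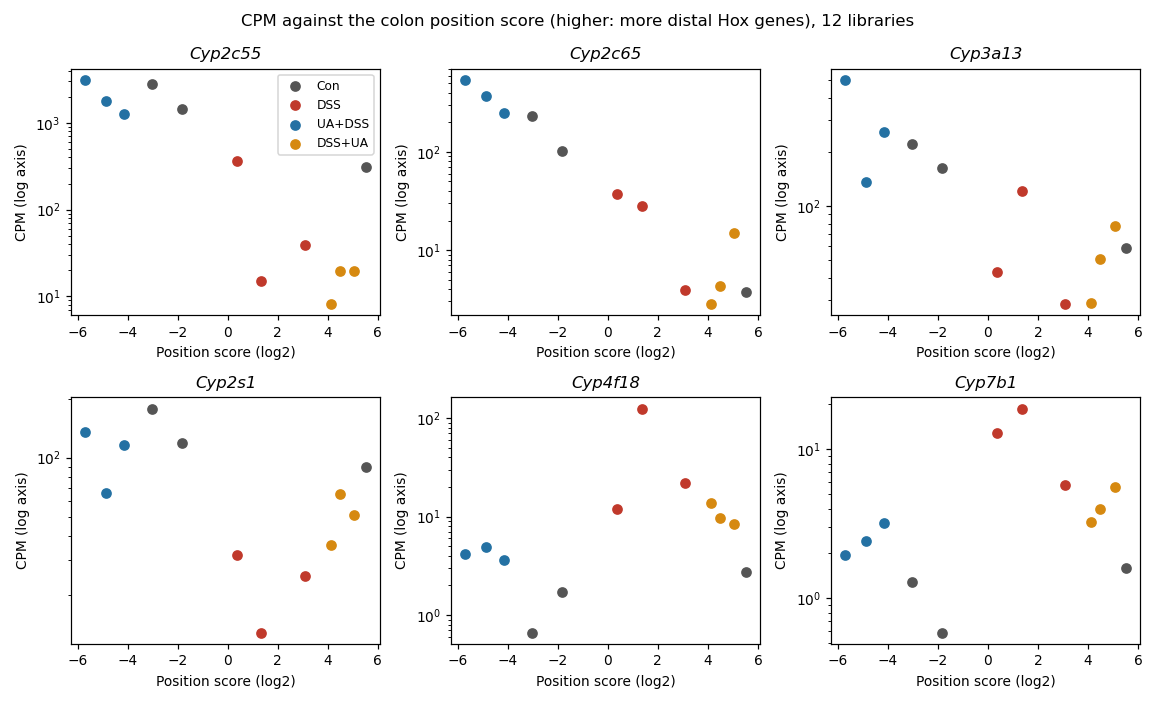
CPM (log axis) of 6 members against the colon position score (log2 scale, higher for distal libraries), with 1 point a library coloured by group. UA+DSS libraries lie at the proximal end with the highest Cyp2c65 values (248 to 543 CPM), and Con 1 lies at the distal end beside the DSS+UA libraries.

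Late ursolic acid was addressed by DSS+UA against DSS, where Cyp4f40 was raised and Cyp26b1 and Cyp2d22 were lowered. These 1 and 2 of the 40 members tested compare with 2.54% of all genes raised and 5% lowered, so the members' shares were near the background. The median log2 difference was -0.36 over the members and 0.02 over all genes. With the position score as a covariate Cyp2d22 remained called, and Cyp26b1 (-2.13, adjusted p = 0.079) and Cyp4f40 (1.21, adjusted p = 0.067) did not. Of all 17658 genes, 199 were then called. The position scores of DSS+UA and DSS did not overlap, so position and treatment cannot be told apart here either. All 3 calls were lost without DSS 2 (397 of all 18126 genes then tested were called), without DSS+UA 2 (142 of 18324), without DSS+UA 3 (25 of 18271) and with the epithelial score as a covariate (0 of 17658). Cyp2c55 CPM was 15.8 ± 6.48 in DSS+UA and 140.4 ± 196 in DSS (SD, n = 3), a log2 difference of -3.16 ± 1.13 (SE), edgeR adjusted p = 0.098.

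In UA+DSS against Con, 0 members were called by edgeR, where 0.00566% of all genes were raised (1 gene) and 0% lowered. At an unadjusted p under 0.05 the same test gave 8 of the 40 members and 2132 of all genes, and DESeq2 called 4 members (Cyp4b1 and Cyp3a44 higher, Cyp2c69 and Cyp2c23 lower). The value for Cyp4b1 was 4.04 ± 1.03 (SE), edgeR adjusted p = 0.24, and its UA+DSS values lay above all Con values. A missed threshold with 3 libraries a group does not show that the groups were alike.

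In DSS+UA against Con, 9 of the 40 members tested were lowered and 2 were raised, where 8.95% of all genes tested were lowered and 9.13% raised. The lowered members were Cyp2c55, Cyp2c69, Cyp2d22, Cyp2s1, Cyp4f13, Cyp4f16, Cyp4f17, Cyp4x1 and Cyp26b1, and Cyp4f18 and Cyp7b1 were raised. The median log2 difference was -0.76 over the members and -0.03 over all genes. Cyp2c55, Cyp2d22, Cyp4f13 and Cyp4x1 remained called whichever library was left out, and without DSS+UA 3 they were the only ones of the 11 to do so. The size of the Cyp4x1 difference is uncertain, with 1, 1 and 2 counts in DSS+UA. With the position score as a covariate 6 of the 11 remained called, and the values of the others went from -1.35 to -0.89 for Cyp2s1, from -0.72 to -0.39 for Cyp4f16, from 2.62 to 2.18 for Cyp4f18 and from 1.87 to 1.64 for Cyp7b1, while Cyp26b1, also lost, was at -1.89. This comparison and DSS against Con share the Con libraries.

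UA+DSS against DSS+UA set early against late ursolic acid directly. Of the 40 members tested, 11 were higher in UA+DSS and 1 was lower, where 7.54% of all genes tested were higher and 9.23% lower. Higher in UA+DSS were Cyp2c55 (7.03 ± 1.35 (SE), edgeR adjusted p = 0.011), Cyp2c65 (5.73 ± 1.36 (SE), edgeR adjusted p = 0.021), Cyp4b1, Cyp4x1, Cyp1b1, Cyp3a13, Cyp26b1, Cyp2d22, Cyp2j9, Cyp4f13 and Cyp2j6, and Cyp2c23 was lower. The median log2 difference was 0.67 over the members and 0.01 over all genes. Cyp2c55, Cyp2d22 and Cyp4x1 remained called whichever library was left out, and without UA+DSS 2 they were the only ones of the 12 to do so. Cyp4x1 had just 1, 1 and 2 counts in DSS+UA, so the size of its difference is uncertain. With the position score as a covariate 0 members and 0 of all genes were called. The log2 difference then went from 5.73 to -1.04 for Cyp2c65 and from 2.51 to 0.31 for Cyp3a13, but from 1.49 to 2.17 for Cyp2d22 and from 3.50 to 3.77 for Cyp4x1.

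**Figure D5:**
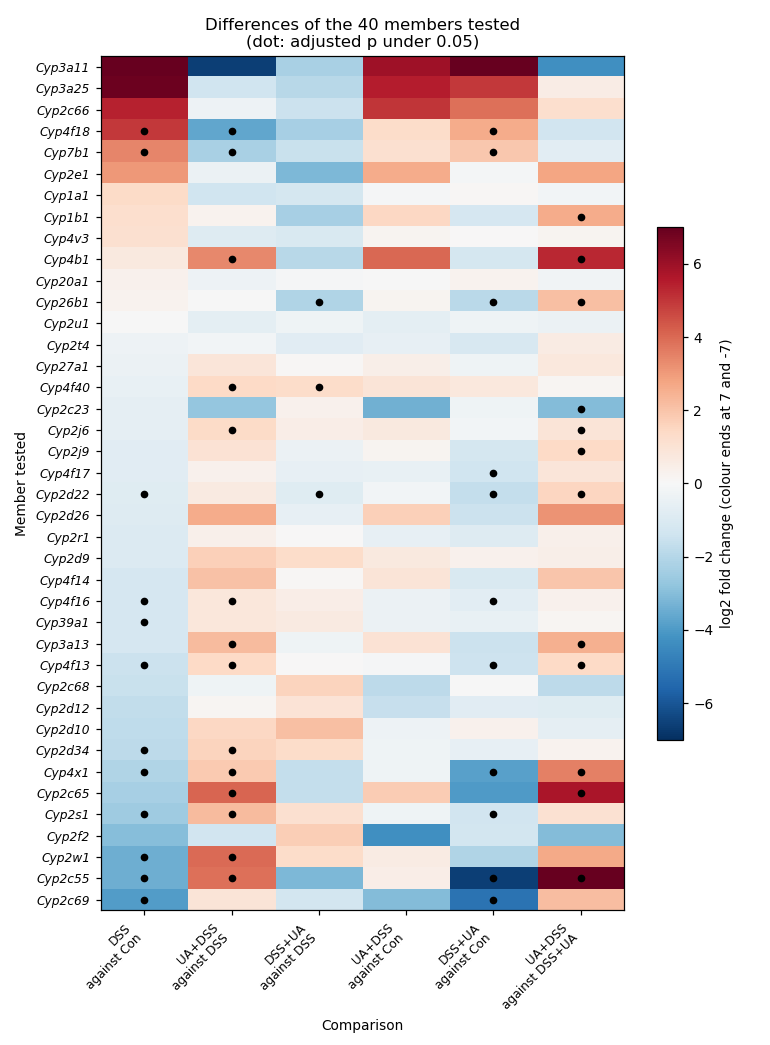
Log2 fold changes of the 40 members tested in the 6 comparisons, with calls at an edgeR adjusted p under 0.05 marked. Calls in DSS against Con are mostly negative (10 of 12), calls in UA+DSS against DSS mostly positive (12 of 14), and UA+DSS against Con has 0.

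Members tested but not called in any of the 6 comparisons included Cyp4f14, Cyp2c68, Cyp2d10, Cyp2d26 and Cyp27a1. Of the 60 members, 17 share at least 10% of their sequence with other genes in 50-base windows and 15 overlap exons of another gene, so their counts may be split between genes.

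Transcription factors known to act on P450 genes were read beside the members. Of 25 tested, 1 was raised (4%, against 13.9% of all genes) and 7 were lowered (28%, against 12.6%) in DSS against Con. In UA+DSS against DSS, 11 were raised (44%, against 8.21%) and 1 was lowered (4%, against 10.5%), in a comparison where 3 of all 17658 genes were called with the position score as a covariate. Cebpb, a factor active in inflammation and in myeloid cells, had CPM of 16.4, 11.6 and 11.6 in Con, 109.7, 509 and 91.4 in DSS, 22.6, 19.9 and 21.8 in UA+DSS and 43.9, 51.7 and 40.5 in DSS+UA and rose in DSS by 4.16 ± 0.60 (SE), edgeR adjusted p = 0.0025.

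P450 enzymes also need electron donors and heme. Of 17 genes of these functions tested, 2 were lowered in DSS against Con (11.8%, near the 12.6% of all genes) and 0 raised, namely Uros of heme synthesis (-0.93 ± 0.18 (SE), edgeR adjusted p = 0.0053) and Pgrmc1, a heme-binding partner of P450 enzymes (-0.71 ± 0.18 (SE), edgeR adjusted p = 0.017). The reductase Por, chosen after its values were seen, had CPM of 85.2, 154 and 119.9 in Con, 103, 173 and 129 in DSS, 143, 216 and 175 in UA+DSS and 75.5, 99.8 and 97.6 in DSS+UA and was higher in UA+DSS than in DSS+UA (0.97 ± 0.26 (SE), edgeR adjusted p = 0.029), where 0 of all genes were called with the position score as a covariate.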

How the data were processed

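RNA-seq of 12 colon libraries of male mice (4 groups of 3) was analysed. The deposited values are whole-number counts per gene that the authors made from their reads; the submitters' processing notes name FastQC, HISAT2, Cuffdiff and GRCm38, without versions, and whether strand was used is not given in the sources used here. From the counts, edgeR 4.0.16 (R 4.3.3) computed CPM with TMM factors and a quasi-likelihood test over all 12 libraries for 6 comparisons, after its default filter on low counts, with Benjamini-Hochberg adjustment over 17658 genes. Libraries held 15566216 to 19498383 counts. RPKM used exon lengths of GENCODE M21. The fit was tested on simulated data. DESeq2 1.42.0, other scalings and filters, covariates and left-out libraries were alternatives. P-values set a group difference against the spread between libraries within groups, estimated over all groups fitted together. The members and lists were chosen with earlier results of these data known. Named were members called (up to 5 a direction and comparison), the 5 highest by RPKM, the highest of each role, a fixed set of inducible and colon forms and, of other lists, up to 3 genes with the smallest p in DSS against Con. The others, such as members described for their sequence or library pattern, were chosen after their values were seen. Some items are not reported here.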

Additional observations from a re-analysis of the deposited data

Results flagged for a closer look

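The 2 ursolic acid groups, given it early or late, differed for 12 members by the direct edgeR test of UA+DSS against DSS+UA over all genes. The log2 difference, positive where UA+DSS was higher, was 7.03 for Cyp2c55 and 5.73 for Cyp2c65. In family 4 it was 5.29 for Cyp4b1, 3.50 for Cyp4x1 and 1.37 for Cyp4f13. It was 2.59 for Cyp1b1, 2.51 for Cyp3a13 and 2.09 for Cyp26b1. Smaller differences were 1.49 for Cyp2d22, 1.42 for Cyp2j9 and 0.88 for Cyp2j6. Cyp2c23 was lower in UA+DSS, at -3.04. The position score did not overlap between these 2 groups, so position and time of dosing cannot be told apart. With it as a covariate 0 of the 12 members and 0 of all 17658 genes were called. The values were then -1.04 for Cyp2c65, 0.31 for Cyp3a13, 0.37 for Cyp1b1, 0.32 for Cyp2j6, 2.98 for Cyp2c55, 3.36 for Cyp4b1 and -1.99 for Cyp2c23, while they were as large or larger for Cyp2d22 (2.17), Cyp2j9 (1.62), Cyp4f13 (1.48), Cyp4x1 (3.77) and Cyp26b1 (2.09). For Cyp4x1 the size rests on 1, 1 and 2 counts in DSS+UA, and for Cyp2c23 on 2, 0 and 2 counts in UA+DSS.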

How the results depend on the processing

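With the position score as a covariate UA+DSS against DSS kept 0 called members and UA+DSS against DSS+UA 0, DSS+UA against DSS had 1 and DSS+UA against Con 6, and Cyp2c65 reversed, to -0.11 in UA+DSS against DSS and -1.04 in UA+DSS against DSS+UA. Of all 17658 genes, the same 4 comparisons then called 3, 0, 199 and 2170. With the epithelial score DSS against Con had 1 (451 of all 17658 genes), UA+DSS against DSS 0 (0 genes) and DSS+UA against DSS 0 (0 genes). A fit on the 2 groups compared gave 7, 8 and 0 in those 3 comparisons. Over all genes it gave 2131 of 16958, 2072 of 16738 and 430 of 16420. Without the filter on low counts DSS+UA against Con had 7 (2242 of all 31891 genes). DESeq2 called 10 for DSS+UA against DSS (3051 of all 16780 genes), and 4 for UA+DSS against Con (368 of 19143). The next 2 alternatives were chosen after seeing the data. Leaving out DSS 2 and DSS+UA 3 gave 0 for DSS+UA against DSS (16 of all 18057 genes), and 6 for DSS+UA against Con (1770 of 18057). Leaving out DSS 3 too left 1 DSS library, which is then assumed to vary like the other groups. In every comparison with member calls, calls then became fewer among the members and among all genes. No called member changed direction in that fit. The causes were not tested. Leaving out 1 library at a time gave DSS against Con 8 to 12 calls, UA+DSS against DSS 0 to 17, DSS+UA against DSS 0 to 4, UA+DSS against Con 0 in every fit, DSS+UA against Con 4 to 12 and UA+DSS against DSS+UA 3 to 15. Those fits tested 18109 to 18324 genes. In the same order they called 2894 to 4708, 183 to 4112, 25 to 1825, 0 to 4, 1062 to 4057 and 560 to 3893 of all genes. Replicate numbers do not pair the animals in the labels, and deviations of same-numbered libraries correlated from -0.216 to 0.187, over 0.1 in 5 of 18 pairs. With the replicate block the 6 counts were 12, 17, 2, 0, 10 and 12. Over all 17658 genes they were 4373, 3151, 552, 1, 2920 and 2998. Single called members kept their side of the threshold in 235 alternative values and lost it in 62 for DSS against Con, 223 and 124 for UA+DSS against DSS, 36 and 38 for DSS+UA against DSS, 198 and 74 for DSS+UA against Con and 211 and 83 for UA+DSS against DSS+UA. Of 1188 alternative values of summed CPM, 21 moved by more than 1 SD.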

Other observations

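Other enzymes of oxidation were read as well. Of 23 such genes tested, among them alcohol and aldehyde dehydrogenases, flavin monooxygenases and epoxide hydrolases, 3 were raised (13.0%, near the 13.9% of all genes) and 5 lowered (21.7%, against 12.6%) in DSS against Con. In UA+DSS against DSS, 6 were raised (26.1%, against 8.21%) and 1 was lowered (4.35%, against 10.5%). Aldh1a3, which makes retinoic acid, had CPM of 6.31, 5.21 and 5.51 in Con, 73.8, 166 and 48.7 in DSS, 14.1, 18.2 and 15.6 in UA+DSS and 44.9, 25.2 and 70.1 in DSS+UA. It rose in DSS against Con, with a log2 fold change of 4.08 ± 0.49 (SE), edgeR adjusted p = 0.0013, and fell in UA+DSS against DSS (-2.59 ± 0.45 (SE), edgeR adjusted p = 0.01). Ephx4, a relative of the epoxide hydrolases, had CPM of 10.6, 13.6 and 9.68 in Con, 1.73, 0.952 and 3.28 in DSS, 8.79, 5.5 and 7.07 in UA+DSS and 2.42, 4.39 and 3.49 in DSS+UA and fell in DSS against Con (-2.51 ± 0.42 (SE), edgeR adjusted p = 0.0035). Aldh1a7, an aldehyde dehydrogenase, fell in DSS against Con as well (-1.30 ± 0.33 (SE), edgeR adjusted p = 0.016).

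The 3 P450-fold enzymes outside the naming rule had no call in any comparison. Cyp51, of cholesterol synthesis, had CPM of 174, 229 and 264 in Con, 145, 75.3 and 236 in DSS, 231, 94.5 and 171 in UA+DSS and 236, 304 and 297 in DSS+UA. Tbxas1, the thromboxane synthase, was at 6.66 to 10.7 CPM in DSS and 2.72 to 5.24 in Con. Ptgis, the prostacyclin synthase, was at 6.86 to 11.7 CPM in DSS and 3.49 to 8.29 in Con.

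Surface colonocyte markers had a summed CPM of 2874, 10726 and 6602 in Con, 1662, 939 and 4788 in DSS, 10453, 13317 and 9102 in UA+DSS and 2131, 4256 and 2709 in DSS+UA. Goblet cell markers ran from 706 CPM in DSS 2 to 12275 in Con 3. Endothelium markers summed to 223 to 338 CPM in DSS and 78.7 to 169 in the other groups. Over all libraries, smooth muscle markers ran from 435 to 3453 CPM, adrenal cortex markers from 25.3 to 62.5 and hepatocyte markers from 2.96 to 99.5.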
